A study of Mus musculus with 3 samples.

Results

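The proteasome is the cell's main machine for breaking down proteins marked with ubiquitin. Its barrel-shaped core has outer rings of alpha subunits, which gate the entrance, and inner rings of beta subunits, some of which cut peptide bonds. A regulatory cap sits on the core: its ATPases unfold the substrate and thread it inward, and its non-ATPase subunits bind ubiquitin and remove it. Other activators can replace the cap, and dedicated assembly factors build the core and the cap. Human embryonic stem cells are known for high proteasome activity, for which the lid subunit PSMD11 matters.

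The genes described here are the constitutive proteasome genes of the mouse measured in undifferentiated F9 cells, an embryonal carcinoma line from a mouse teratocarcinoma. They were chosen by name. Every probe set, a group of short probes that together report a transcript, was taken if its single gene symbol began with Psma to Psmg followed by a number. The interferon-induced subunits Psmb8, Psmb9 and Psmb10, and symbols ending in "ip", were left out. This gave 45 genes with 97 probe sets, of 18193 named genes and 45037 probe sets in all. Of the 45, 44 encode subunits, activators, an inhibitor or assembly factors. The remaining gene, Psme3ip1, encodes a nuclear protein that binds the activator Psme3 and is no subunit. Its symbol ends in a number, so the naming rule kept it, and it is counted apart.

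RNA came from 3 labelled replicates of a single group: untreated F9 cells, a clonal tumour line, grown on plates coated with 0.2% gelatin in DMEM with 10% fetal calf serum and collected near 80% confluence. Each replicate was measured on a Mouse Genome 430 2.0 array. No differentiated or treated cells were part of the design, so the question is which of these genes F9 cells express above background and how closely the arrays agree. A probe set's signal depends on its own probes as well as on the RNA, so signals of different genes are given side by side but not ranked. Whether the replicates were separate cultures is not stated, so the p-values reflect the variation among these 3 RNA samples, part or all of which may be technical.

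Background was set on each array as the 95th percentile of the signals of 127 probe sets for 114 olfactory, vomeronasal and taste receptor and keratin-associated protein genes, families of narrow expression. This threshold was a signal of 44.6, 46.1 and 43.2 on replicates 1, 2 and 3. Above background means that log2 signal over the threshold exceeded 0 in limma's moderated test with a Benjamini-Hochberg adjusted p under 0.05 over all probe sets. All 8 embryonal carcinoma markers checked, such as Pou5f1 and Nanog, were above background. None of 5 fibroblast markers was by limma, and 0 had an unadjusted p under 0.05. None of 5 markers of differentiated endoderm passed either. Sox17, with a mean signal of 69.7 ± 18.6, was the 1 of them whose p before adjustment was below 0.05. Of 4 blood and immune markers Cd68 and Csf1r passed, at 0.83 and 0.95 log2 units. Only 1 of the 3 probe sets of Csf1r, the brightest, was above background. Ptprc and Cd3e, at mean signals of 10.6 ± 6.54 and 7.20 ± 0.33, did not pass.

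RefSeq promoter windows, running from 250 bases before to 50 after a gene's start in GRCm38.p6, were found for 37 of the 45 genes. Those of Psma8, Psmb1, Psmb2, Psmb7, Psmc3, Psmd3, Psmd7 and Psmg2 were not used here. The windows were searched on both strands for 3 motifs known from proteasome genes or housekeeping promoters. A gene could have several starts, each with its own window, and was counted if any of these held the motif. TGACNNNGC is the antioxidant response element to which Nfe2l1 binds, the factor that raises proteasome genes when the proteasome is impaired. The stretches below show it in capitals in the genes where it lay wholly before the start, with up to 11 flanking bases, each read along the strand that carries the motif.
Psmb5 (chr14:54618023-54618053, minus strand): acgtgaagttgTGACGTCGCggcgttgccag
Psmb6 (chr11:70525337-70525356, plus strand): actaaagagagTGACGGAGC
Psmc6 (chr14:45329586-45329616, minus strand): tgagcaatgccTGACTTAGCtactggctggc
Psmd12 (chr11:107479278-107479300, minus strand): gggggcaaatgTGACACAGCaga
Psmd9 (chr5:123228148-123228178, plus strand): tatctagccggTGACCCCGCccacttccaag
Of the catalytic beta subunit genes with a window, Psmb5 and Psmb6 carried it and Psmb11 did not. Psme4 also held it, across the start, which makes 6 of 37 genes (16.2%). The share was 16.8% of 7610 named genes above background and 15.4% of 6758 not above it, so the motif was about as frequent in other promoters. CCAAT, the box bound by NF-Y, was found in 14 of 37 (37.8%), against 43.7% of named genes above background and 40.2% of those not above.

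CCGGAAG, the core that ETS-family factors bind in many housekeeping promoters, was found in 15 of 37 genes with a window (40.5%). It was found in 22.7% of named genes above background and in 6.38% of those not above. GC content was taken for each gene from its window richest in GC. The median was 59.0% for the proteasome genes, 62.7% for all named genes above background and 55.0% for those not above. By role, 6 of 9 non-ATPase cap genes and 3 of 5 ATPase genes with a window held CCGGAAG, and 1 of 7 core alpha genes. So did 2 of 4 activator or inhibitor genes, 2 of 6 assembly factor genes and Psme3ip1. It was in none of the 5 core beta genes with a window, Psmb3, Psmb4, Psmb5, Psmb6 and Psmb11. Differences between roles in these small counts were not tested. All 19 matches began within 150 bases before the start or after it. Examples from cap and assembly genes, chosen after the counts were seen, show the motif in capitals.
Psmc1 (chr12:100110163-100110191, minus strand): aatcgccaccgCCGGAAGtgcatccacca
Psmc6 (chr14:45329713-45329741, plus strand): aggcgggccagCCGGAAGgggcggagcca
Psmd2 (chr16:20651615-20651643, minus strand): tgtcctccagaCCGGAAGcgccctgcgga
Psmd6 (chr14:14120973-14121001, minus strand): cagagacgcgaCCGGAAGtcagactggcg
Psmg1 (chr16:95991012-95991040, minus strand): ctcgcggcggaCCGGAAGctcttaggttc
These matches are descriptions of sequence, and whether any factor binds there in F9 cells was not measured. The 45 genes lie on 16 chromosomes, with 8 on chromosome 11, so they do not form a cluster in the genome.

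Of the 45 genes 43 (95.6%) were above background, against 50.8% of all named genes, each gene being represented by its probe set of highest mean signal. Without Psme3ip1 the count was 42 of 44. The exceptions were Psma8 and Psmb11, both known as tissue-restricted copies of a core subunit. The median gene lay 6.35 log2 units over the threshold, against 0.69 for all named genes. Called genes lay between 3.47 units for Psmg4 and 7.79 for Psmb7, with limma adjusted p-values of 0.000109 to 0.000279. Each signal is an average over a culture, so few cells with much RNA and many with little cannot be told apart. No gene called lay near the threshold, and 43 genes also exceeded it on every array.

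**Figure D1:**
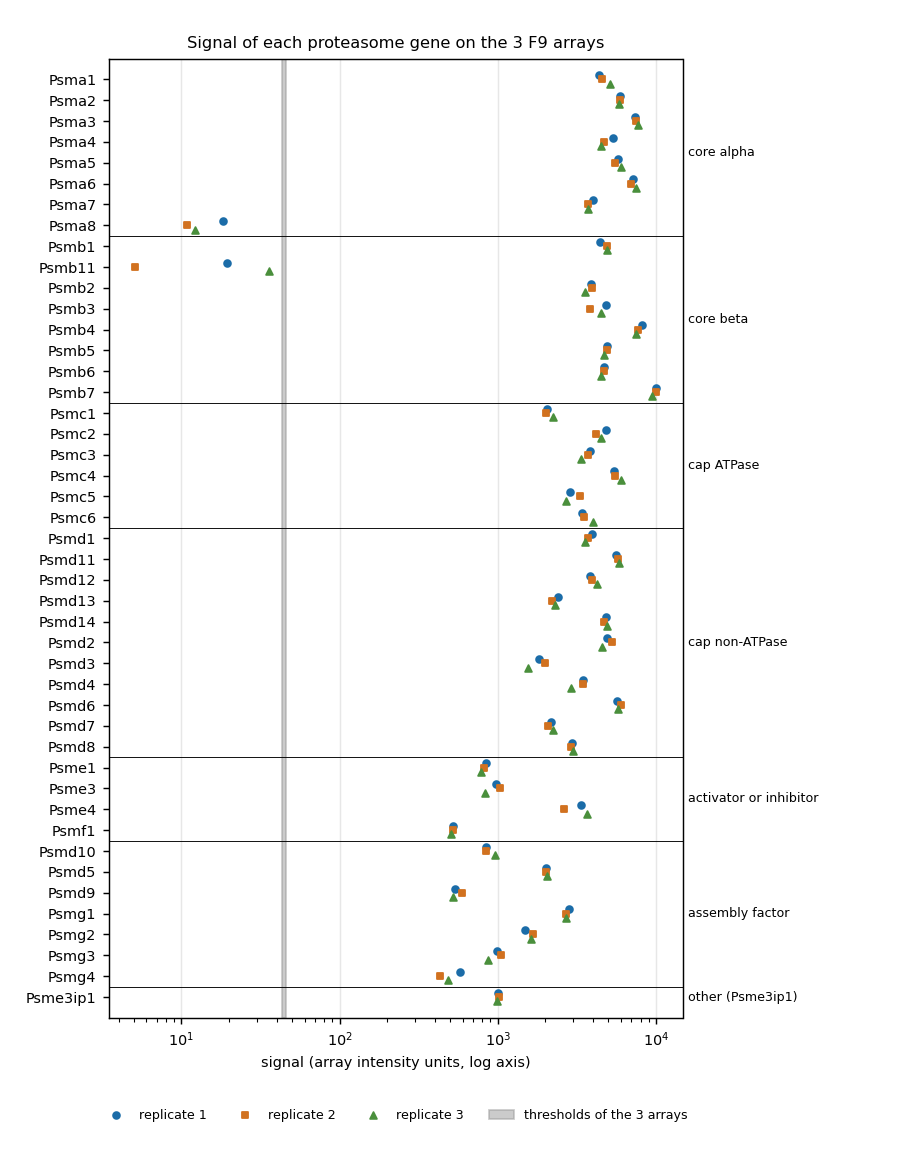
Signal of each of the 45 genes on the 3 arrays (log axis, array intensity units), 1 point for each replicate, grouped by role; the grey band spans the thresholds of the 3 arrays. All points of all genes but Psma8 and Psmb11 lie above the band, with means of at least 3.47 log2 units over the threshold, and the arrays of a called gene differ by at most 1.38-fold.

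The alpha ring was represented by all 7 of its ordinary subunit genes. Psma1 had signals of 4359, 4566 and 5137 on replicates 1, 2 and 3, or 4687 ± 403 (SD, n = 3). The other ordinary alpha genes had mean signals of 5939.8 ± 46.9 for Psma2, 7497 ± 182 for Psma3, 4852 ± 439.7 for Psma4, 5761 ± 252 for Psma5, 7224 ± 263 for Psma6 and 3811 ± 161 for Psma7. All stood 6.42 to 7.39 log2 units over the threshold.

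The alpha gene that was not above background was Psma8, a close relative of Psma7 that is used in the testis, where it forms proteasomes of spermatocytes. Its signals were 18.4, 10.9 and 12.2, below the threshold on every array, with a log2 value of -1.73 ± 0.21 (SE). Psma7 stood at 3995, 3739 and 3698, far above the threshold on every array. Psma8 was measured by a single probe set designed on an expressed sequence tag, not on a RefSeq mRNA. Not above background does not show that a transcript was absent.

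The beta ring was likewise complete in its ordinary subunits, 7 of 7. Among the catalytic ones, Psmb5, with the chymotrypsin-like activity that the drug bortezomib blocks, had signals of 4887, 4944 and 4677. Psmb6, with the caspase-like activity, stood at 4708, 4685 and 4528, and Psmb7, with the trypsin-like activity, at 10056, 10090.2 and 9487. The ratio of the highest to the lowest array was 1.06-fold for Psmb5, 1.04-fold for Psmb6 and 1.06-fold for Psmb7, so the arrays nearly coincided. Psmb1, Psmb2, Psmb3 and Psmb4, the non-catalytic members of the ring, had mean signals of 4747 ± 293, 3803 ± 196, 4395 ± 497 and 7794 ± 324. Psmb1 had 4410.2, 4892 and 4939.7 on its brightest probe set, lowest on replicate 1. Its other probe sets, at 161, 195 and 109 and at 169, 138 and 129, were lowest on replicate 3.

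Psmb11, the catalytic subunit of proteasomes in cortical epithelial cells of the thymus, was not above background. Its signals of 19.5, 5.10 and 35.6 lay below the threshold on all arrays, at -1.55 ± 0.68 log2 units (SE). The range of 6.97-fold between arrays shows how little a signal in this low range can be ordered. Psmb11, too, rested on a single probe set designed on an expressed sequence tag.

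The interferon-induced subunits, which replace the catalytic ones in the immunoproteasome, stand outside the set and serve as a contrast. Psmb8, the counterpart of Psmb5, was listed at 1.11, 6.17 and 19.4 on its brighter probe set, and neither of its 2 probe sets was above background. Psmb9, the counterpart of Psmb6, had 38.8, 52.8 and 40.7, on both sides of the threshold (-0.03 log2 units, limma adjusted p = 1). Psmb10, the counterpart of Psmb7, was above background at 205, 261 and 210.3 (2.33 log2 units, limma adjusted p = 0.000476). Thus Psmb5, Psmb6 and Psmb7 were each called, and of their induced counterparts Psmb10 was. No test compared the genes of a pair, since they were read by different probes.

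All 6 ATPase genes of the cap were above background. Psmc1 had signals of 2064, 2010.0 and 2227 on the 3 arrays, and Psmc2 had 4875, 4198 and 4511. Psmc3, Psmc4, Psmc5 and Psmc6 had mean signals of 3645 ± 269, 5657 ± 339, 2956 ± 303 and 3649 ± 330.4. The ATPases form a ring in which each occupies a fixed place, and their log2 values over the threshold ran from 5.56 for Psmc1 to 6.99 for Psmc4.

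The 11 non-ATPase genes of the cap were all above background, at 5.31 to 7.03 log2 units. Psmd1 and Psmd2 encode the large scaffold subunits at the base of the cap. Psmd1 had 3961, 3721 and 3573, and Psmd2 had 4945, 5267 and 4598. Psmd4, a ubiquitin receptor, had a mean of 3279.9 ± 312, and Psmd14, the deubiquitinase that removes ubiquitin chains from substrates, of 4822 ± 113. Psmd7, its partner without enzyme activity, stood at 2160.4 ± 84.5.

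The scaffold subunits of the lid were measured by Psmd3, Psmd6, Psmd8, Psmd11, Psmd12 and Psmd13. Their mean signals were 1782 ± 219, 5820.3 ± 163, 2956 ± 42.5, 5735 ± 109, 4013 ± 207 and 2303 ± 101. Of the non-ATPase genes Psmd3 had the widest spread, with 1812, 1983 and 1549 on replicates 1, 2 and 3, a range of 1.28-fold.

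Activators and the inhibitor were above background in 4 of 4 measured genes. Psme1, a subunit of the interferon-induced activator PA28, had 849, 825 and 783. Psme3, which forms a related activator in the nucleus, had 977, 1027 and 827, lowest on replicate 3. Psme4, the large activator PA200 known from DNA repair and spermatogenesis, had 3379, 2644 and 3649, lowest on replicate 2. Psmf1, the inhibitor PI31, had 524, 519 and 505. Psme2, the partner of Psme1, was not among the 45 genes, since its probe set also carries the symbol Psme2b. Psme3ip1 stood at 999, 1022 and 983. The median over the threshold was 4.30 log2 units for this group of 4, with the largest value, 6.16, for Psme4.

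All 7 assembly factors were above background. Psmg1 and Psmg2, which pair to build the alpha ring, had mean signals of 2738 ± 89.1 and 1593 ± 98.9. Psmg3 and Psmg4, a second such pair, had 965 ± 91.8 and 499 ± 74.8. Psmg4 read 579.9, 432 and 486, highest on replicate 1, and had the lowest log2 value of the called genes of the set. The chaperones of the ATPase ring, Psmd5, Psmd9 and Psmd10, stood at 2031 ± 27.96, 551 ± 34.9 and 885 ± 71.8. Psmd5 read 2016, 2014 and 2064, with a range of 1.02-fold between arrays. By role, the median log2 value over the threshold was 6.89 for core alpha, 6.72 for core beta, 6.35 for ATPase, 6.39 for non-ATPase and 4.43 for assembly factors. These medians describe probe sets and do not rank amounts of RNA.

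Probe sets of the same gene often disagreed on the call. Of the 97 probe sets 74 (76.3%) were above background, against 38.1% of all probe sets. Among 25 genes with several probe sets, 15 (60.0%) had some above and some not above background, against 39.8% of 9010 such genes on the array. All 25 had at least 1 probe set above background, and of the 5966 genes on the array with several probe sets of which that was true, 60.1% were split, so the share in the proteasome genes was no higher. All 23 member probe sets designed on a RefSeq mRNA, by an accession beginning NM_, were above background, where 48.5% of all such probe sets were. Of 59 with another accession 38 (64.4%) were, against 43.8% of all such probe sets. Of 15 with no accession listed 13 were called. Within genes that had at least 1 called probe set, 74 of 95 proteasome probe sets (77.9%) were called, against 74.1% of 21249 over all named genes. There, the 23 of 23 with an NM_ accession stood against 89.4% of 3182, and 38 of 57 with another accession (66.7%) against 70.9% of 16175. In all, 21 of the 23 probe sets not above background belonged to genes that another probe set called.

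**Figure D2:**
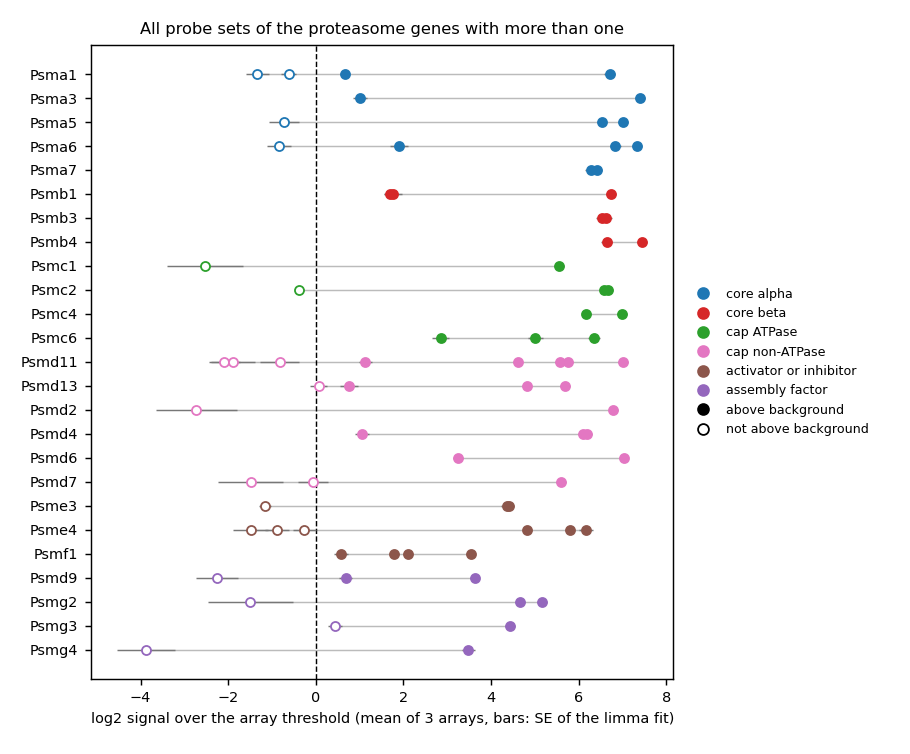
Log2 signal over the array threshold (x axis; dashed line at 0) for every probe set of the 25 genes with more than 1, by gene; points are means of 3 arrays, bars the SE of the limma fit, colours the role, and open circles were not above background. Open circles occur in 15 genes and none in core beta genes.

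In the core, Psma1 was called by the probe set given above and by a second at 72.6, 69.00 and 69.4. Its other probe sets, at 21.6, 12.1 and 21.2 and at 24.4, 28.5 and 35.4, were not above background. Psma5 was called by probe sets at 5749, 5514 and 6019 and at 4076, 4257 and 4013, but not by one at 37.01, 15.8 and 33.7. Psma6 was called at 7151, 7005 and 7516, at 5179, 4810.1 and 5332 and at 227, 149 and 136, but not at 15.9, 31.3 and 30.9. Each of these 3 alpha genes was thus called by at least 2 probe sets. Psmb1, Psmb3 and Psmb4 were called by every probe set they had.

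In the cap, Psmc1 was not called by a second probe set at 2.53, 33.6 and 5.37, nor Psmc2 by its dimmest at 32.9, 37.8 and 32.6. Psmd2 had a second probe set at 33.7, 3.08 and 2.95, highest on replicate 1 but below the threshold on every array. Psmd7 was called by the probe set at 2169, 2072 and 2240.3 and not by those at 75.2, 34.96 and 29.2 and 4.39, 31.7 and 28.8. Psmd13 was called at 2407, 2206 and 2297, 1317, 1250.3 and 1189 and 57.7, 75.9 and 97.5, but not at 50.2, 36.1 and 56.01, which crossed the threshold between arrays. These pairs of readings come from the same RNA, so the calls differ by probe set and not by sample.

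Psmd11 had 8 probe sets, more than any other gene of the set, of which 5 were called. The brightest read 5619, 5748 and 5837, followed by 2458, 2328 and 2427, 1890.1, 2264 and 2250.3, 1071, 1145 and 1046 and 100.3, 83.95 and 110.3. Those not above background read 22.8, 53.1 and 13.2, 10.2, 6.62 and 17.1 and 23.4, 14.4 and 5.16. All of the called ones exceeded the threshold on every array.

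Among activators and assembly factors, Psme3 was not called by its dimmest probe set at 22.2, 18.1 and 19.7. Psme4 was called at 3379, 2644 and 3649, 2464, 2449 and 2489 and 1319, 1223 and 1266, but not at 42.8, 25.2 and 47.3, 19.5, 19.5 and 36.2 or 24.8, 8.27 and 19.5. The other split genes were assembly factors. Psmd9 was called at 537, 590.4 and 525 and 81.2, 78.9 and 57.4, but not at 4.08, 16.02 and 12.4. Psmg2 was called at 1479.6, 1664 and 1634 and 1084, 1165 and 1136, but not at 42.2, 3.02 and 30.98. Psmg3 was called at 989, 1042 and 863, while a second probe set at 63.3, 51.1 and 68.2 exceeded the threshold on all arrays without passing limma's test (adjusted p = 0.0824). Psmg4 was called by the probe set given above, and its second read 0.98, 5.16 and 5.57. Psmf1 was called by all 4 of its probe sets, with means of 67.1 to 516.

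The arrays agreed closely for the called genes. The ratio of the highest to the lowest array had a median of 1.11-fold over the 43 genes, against 1.18-fold over all 9238 named genes above background. It was under 1.2-fold in 36 of the 43 (83.7%), against 57.0% of all called genes. Bright signals vary less, so the ratio was also taken by brightness. For mean signals of at least 2000, the median was 1.09-fold in 33 proteasome genes and 1.10-fold in 1176 named genes. For 500 to 2000 it was 1.13-fold in 9 proteasome genes and 1.14-fold in 2901 named genes. Below 500 there was 1 called proteasome gene, Psmg4, at 1.34-fold, and the median of 5161 named genes was 1.24-fold.

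The widest ranges were those of Psme4 (1.38-fold), Psmg4 (1.34-fold), Psmd3 (1.28-fold), Psmb3 (1.25-fold) and Psme3 (1.24-fold). Psmb3 read 4845, 3862 and 4478, lowest on replicate 2, as Psme4 and Psmg4 were. Psmd3 and Psme3 were lowest on replicate 3. No array stood apart for the set as a whole: the median deviation from a gene's mean was 0.006 log2 units on replicate 1, -0.008 on replicate 2 and -0.013 on replicate 3. Replicate 1 was the highest array for 13 genes, replicate 2 for 14 and replicate 3 for 16.

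**Figure D3:**
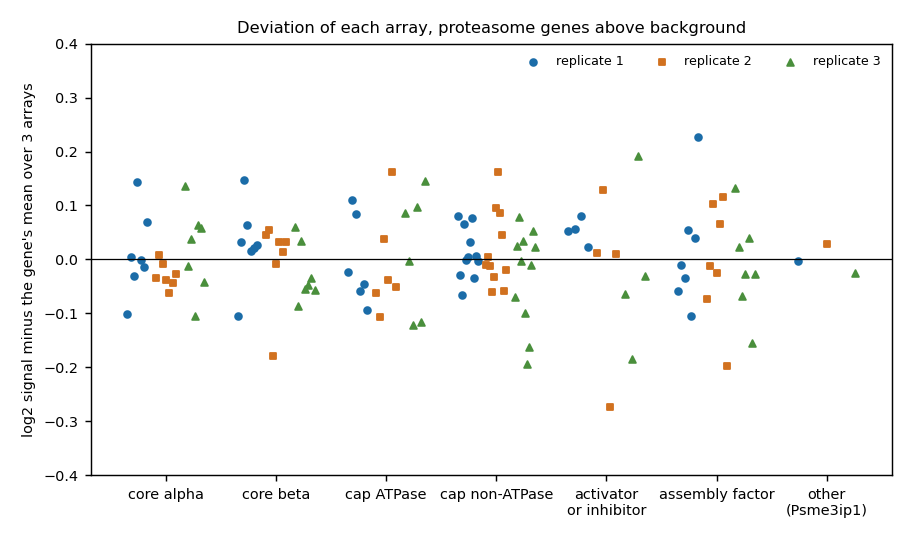
Log2 signal minus the gene's mean over the 3 arrays (y axis) for the 43 genes above background, by role; each gene has 1 point for each replicate, marked by colour and shape. Points lie on both sides of 0, unevenly in some roles: on replicate 1 all 4 activator or inhibitor genes and 6 of 7 core beta genes lie above 0, and on replicate 3 5 of these 7 lie below it. The widest deviation, on replicate 2, is that of Psme4 at -0.27.

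The array on which a gene read highest often differed between its probe sets. Of 46 pairs of called probe sets of the same gene 12 (26.1%) were highest on the same array, against 40.5% of 10290 such pairs over all named genes. The pairs are not independent, as Psmd11 gave 10 of the 46 and Psmf1 gave 6. Counted by gene, all called probe sets were highest on the same array in 3 of 20 genes (15%), against 30.1% of 4064 named genes, and these shares were not tested. A gene where they coincided, chosen after the values were seen, was Psmc6, whose 3 probe sets were all highest on replicate 3. They read 3410.3, 3509.6 and 4026, 1295, 1282 and 1777 and 291, 279.8 and 406 on replicates 1, 2 and 3. Psme3, also chosen after the values were seen, was lowest on replicate 3 in both called probe sets. They read 977, 1027 and 827 and 1017, 974 and 765. Their highest arrays differed, replicate 2 and replicate 1, so Psme3 is not among the 3 genes. Probe sets of the same gene can share target sequence, and whether the RNA samples differed in these genes was not tested.

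Genes that work beside the proteasome were measured from a list of 36, of which 27 were analysed here. Outside the immunoproteasome, all 24 were above background, against 50.8% of all named genes. Some genes of subunits, assembly or nuclear import carry other names. Pomp, which matures the core, had 5545, 5401 and 5621. The small lid subunit gene Sem1 had 3303, 3779.6 and 3719.7. Akirin2, which brings proteasomes into the nucleus, had 3381, 3331 and 3844. The deubiquitinases Usp14 and Uchl5, which work on the cap, had mean signals of 2455 ± 113 and 2234 ± 182. The ubiquitin ligase gene Ube3c had 696 ± 39.9, the thioredoxin-like Txnl1 4989 ± 88.5, and Zfand5, a proteasome activator, 1978 ± 88.8. Ecpas, which tethers core to cap, lay nearest the threshold of the 24, at 2.42 log2 units, with 286, 225 and 213.

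The ubiquitin shuttles, which carry substrates to the cap, were Rad23b (2626 ± 225), Ubqln1 (2615 ± 147), Ubqln2 (4214 ± 462) and Ubqln4 (1734 ± 181). The unfoldase Vcp, which extracts ubiquitinated proteins from complexes, had a mean signal of 5339 ± 350.4. Its cofactors stood at 584 ± 79.1 for Nploc4, 731 ± 37.2 for Ufd1, 2723 ± 14.5 for Nsfl1c, 1424 ± 17.7 for Faf1 and 363 ± 28.96 for Faf2.

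The 5 transcription factor genes measured, linked to TGACNNNGC or CCAAT, were above background, and no ETS factor was on the list. Nfe2l1 had 1105, 1164 and 749, lowest on replicate 3, with a range of 1.56-fold, wider than that of any called gene of the 45. Nfe2l2, its relative in the oxidative stress response, had 1320.1, 1274 and 1369. The NF-Y subunits Nfya, Nfyb and Nfyc had mean signals of 516 ± 33.3, 1024 ± 127 and 1086 ± 43.9. RNA of a factor does not measure its activity, and Nfe2l1 in particular is known to be controlled through protein breakdown.

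**Figure D4:**
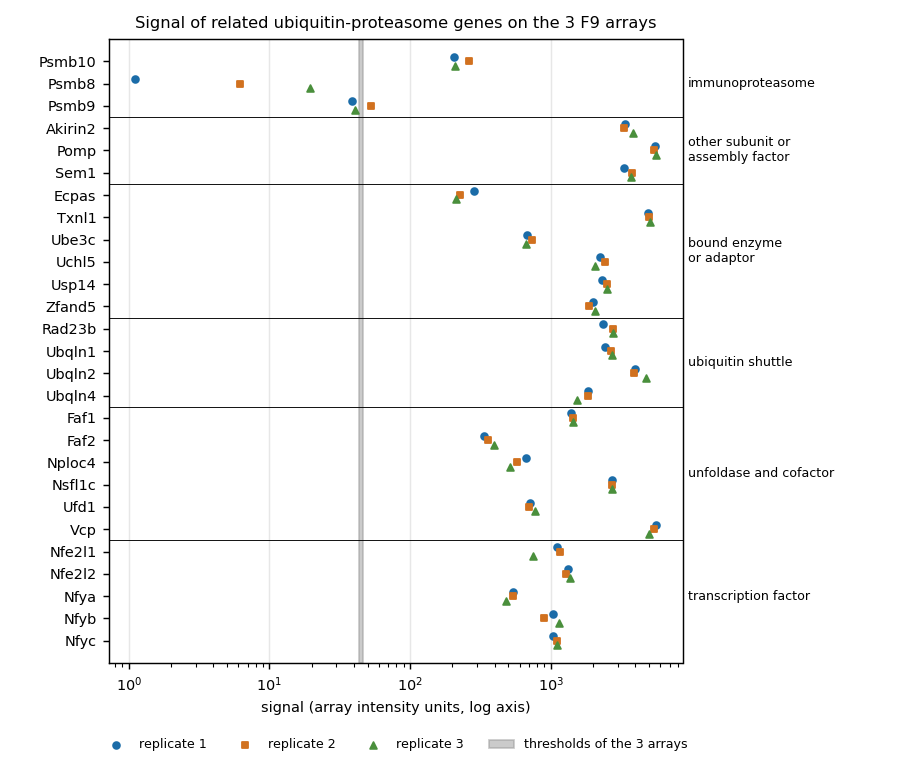
Signal of 27 related genes on the 3 arrays (log axis, array intensity units), 1 point for each replicate, grouped by function; the grey band spans the thresholds of the 3 arrays. Psmb8 lies below the band and Psmb9 around it, and the other genes lie above it.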

How the data were processed

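The authors deposited a linear signal intensity for each probe set on each array, made with GCOS 1.4 per the submitters' processing notes. How GCOS computed the signal, and any genome build, is not given in the sources used here. Deposited intensities had been scaled: after trimming 2% at each end, array means were 249.07, 249.07 and 249.04. Medians were 37.8, 37.7 and 36.01. A change in RNA content per cell would not show after such scaling.

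Symbols came from a platform annotation of 2016, in which 34945 probe sets had 1 symbol, 932 several and 9160 none. Of the 34945, 34741 had a gene identifier in a GRCm38.p6 table, which changed 0 symbols. Log2 signal minus log2 threshold was tested in limma 3.58.1 under R 4.3.3 (intercept-only lmFit and eBayes, one-sided). P-values were adjusted by Benjamini-Hochberg over 45037 probe sets, after leaving out 64 controls. The number of arrays limits the precision.

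Members, gene lists and motifs were chosen with earlier results of these data known. Every member is named. Signals of all arrays are given for catalytic subunits, genes not called or split between probe sets, the first gene of each role and the 5 widest ranges; others given so were chosen after their values were seen. Alternatives changed the percentile, the background families, the probe set choice, the probe sets tested, the scaling, the offset, a dim filter and the replicates. Protein sequences were not used here.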

Additional observations from a re-analysis of the deposited data

How the results depend on the processing

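The count of 43 of 45 genes above background was the same at the 90th and 99th percentiles, with olfactory receptors alone, without _s_at and _x_at probe sets, with quantile normalization, with 16 signal units added, with probe sets under a mean signal of 20 left out, without any 1 replicate, and with no test, though the filter left 44 genes tested. It was 38 with the probe set chosen by suffix (43.1% of all named genes) and 42 with the mean of all probe sets (43.2%). With the suffix choice, Psma5 lay at -0.73, Psmd11 at -0.82, Psmd7 at -0.070 and Psmg2 at -1.50 log2 units, and Psmd13 at 0.06 lost its call. With the mean of all probe sets Psmg4 lay at -0.20. These reversals follow from which probe set is read. Of related genes, Nfya lay at -0.88 and Ubqln1 at -2.81 with the suffix choice, and Psmb9, not called in either case, at 0.29 at the 90th percentile and between -0.14 and 0.055 when 1 replicate was left out. Member probe sets above background numbered 67 to 75, and 64 of 85 without _s_at and _x_at probe sets. For blood and immune markers the count of 2 became 0 at the 99th percentile and 1 with the suffix choice or the mean of all probe sets. For endoderm markers the count of 0 became 1 at the 90th percentile, with 16 signal units added, with dim probe sets left out, with the mean of all probe sets and with no test; the cause was not tested. No paired analysis was possible because the series holds a single group. Psmb9, whose arrays lay on both sides of the threshold, cannot be placed above or below background at this precision.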

Other observations

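The probe set that carries the symbols of both Psme2, the partner of Psme1 in the activator PA28, and Psme2b had signals of 561, 308 and 477 on replicates 1, 2 and 3. It was above background at 3.29 log2 units (limma adjusted p = 0.00108). Which of these genes it reports could not be told apart. Its mean was 449 ± 129 (SD, n = 3), lowest on replicate 2.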
